A study of Mus musculus with 6 samples.

Results

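Hyaluronan is a long sugar polymer of the extracellular matrix, and 10 mouse genes that make it, break it down or bind it were followed in fibroblasts sorted from pancreatic tumours: the synthase genes Has1, Has2 and Has3, the turnover genes Hyal1, Hyal2 and Cemip, and the genes of the hyaluronan-binding proteins Cd44, Vcan, Tnfaip6 and Hmmr. They were chosen by name, for their roles, from the 49671 genes in the count tables, and all 10 were found. The cells came from C57BL/6J mice that carried Rosa-mTmG, a reporter that makes a cell red (Tomato) until Cre recombinase turns it green (GFP), together with Cre under the Fabp4 promoter. At 8 weeks of age the pancreas of each host was injected with FC1199, a mouse pancreatic cancer cell line, and tumours grew with no treatment for 4 weeks, so that the animals were 12 weeks old at harvest. Cells with Podoplanin on their surface were then sorted by colour into a GFP fraction, which the labels describe as cancer-associated fibroblasts (CAFs) derived from stellate cells, and a Tomato fraction, described as CAFs of other origin. There were 3 libraries of each fraction. A cell turns green wherever the Fabp4 promoter has been active, and in mice this promoter is also known from adipocytes, endothelial cells and macrophages; both fractions come from the same kind of host and tumour.

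Hyaluronan is spun out through the plasma membrane by the synthases from UDP-glucuronic acid and UDP-N-acetylglucosamine. It is cut by hyaluronidases and by CEMIP, held on cells by receptors such as CD44, and cross-linked or organised in the matrix by versican and by TSG-6, the product of Tnfaip6. Pancreatic ductal adenocarcinoma is known for a stroma rich in hyaluronan.

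Libraries held 35580848 to 40213293 counted reads in GFP and 33378377 to 42154933 in Tomato. Levels are given as CPM (counts scaled to a common library total) after scaling by the trimmed mean of M-values (TMM), and fold changes are GFP over Tomato. Of all genes tested, 13.1% were higher in GFP and 15.7% lower at an adjusted p under 0.05 (edgeR), shares to set beside each count of markers here. Of 10 common fibroblast genes 6 were higher in GFP and none lower, and their summed level was 128500 to 143300 CPM in GFP and 62530 to 95490 CPM in Tomato. Collagen genes made up most of that sum, with Col3a1 alone at a mean of 67580 CPM in GFP and 41740 CPM in Tomato. Dcn (log2 fold change -0.10), Lum (0.30), Fap (0.22) and Pdpn (-0.10) did not pass. Of 6 stellate cell markers 2 were higher in GFP (Lrat and Reln) and 1 lower (Gfap, under 1 CPM in all libraries). Their median log2 fold change was -0.09, and they summed to 393 to 451 CPM in GFP and 420 to 552 CPM in Tomato. Markers of other cells also differed. The summed level of 12 mesothelial markers was 173 to 205 CPM in GFP and 1542 to 1815 CPM in Tomato (11 lower), and that of 12 macrophage and monocyte markers was 150 to 237 CPM in GFP and 1072 to 2682 CPM in Tomato (all 12 lower). In GFP, Krt14 and Muc16 of the mesothelial list and Ms4a7 and Fcgr1 of the macrophage list were under 1 CPM in every library. Wt1, the mesothelial marker that did not pass, was nearly level (-0.03 on the log2 scale, adjusted p = 0.848, edgeR). Its GFP libraries held 118, 106 and 85.6 CPM, a large part of the mesothelial sum there. Its Tomato libraries held 110, 106 and 101 CPM. For 5 lymphatic endothelial markers the summed level was 310 to 493 CPM in GFP and 22.2 to 77.6 CPM in Tomato (all 5 higher). For 8 epithelial and cancer cell markers it was 115 to 145 CPM in GFP and 576 to 700 CPM in Tomato (6 lower). Of those 8 markers, 3 are also in the mesothelial list. The part of these cells in the results was not tested, and in bulk libraries fewer cells of a type and less RNA per cell cannot be told apart.

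Among the hyaluronan genes, Vcan was 2.12-fold, Has2 1.45-fold and Cemip 1.78-fold higher in GFP, and none was lower, of 9 tested by the quasi-likelihood test of edgeR at an adjusted p under 0.05 (all p-values are adjusted over 15608 genes by the Benjamini-Hochberg method). The background was high: of all genes tested, 28.9% were called, 13.1% higher in GFP and 15.7% lower. Cemip lost its call in 5 of 6 refits, each omitting another library (all but the one without GFP replicate 1; adjusted p up to 0.137). Vcan and Has2 held theirs in all 6, with adjusted p up to 0.0315 for Vcan and, just under the threshold, 0.0491 for Has2. The median log2 fold change of the 9 genes was 0.41, and that of all genes tested was 0.00. All 3 GFP libraries exceeded all 3 Tomato libraries for 4 of the 9 genes, which was the case for 23.4% of all genes tested. No member lay wholly below, against 25.2% of all genes. Has3 fell under the filter on low counts. Libraries of equal number in the 2 fractions deviated together across the transcriptome, and with that number as a block in the fit Has1 and Tnfaip6 were also higher in GFP and Hmmr was lower. That fit called 20.1% of all genes higher and 20.9% lower. A fit adjusted for GC content and exon length called 10.4% higher and 12.9% lower, and with the block in addition 17.2% higher and 17.9% lower.

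**Figure D1:**
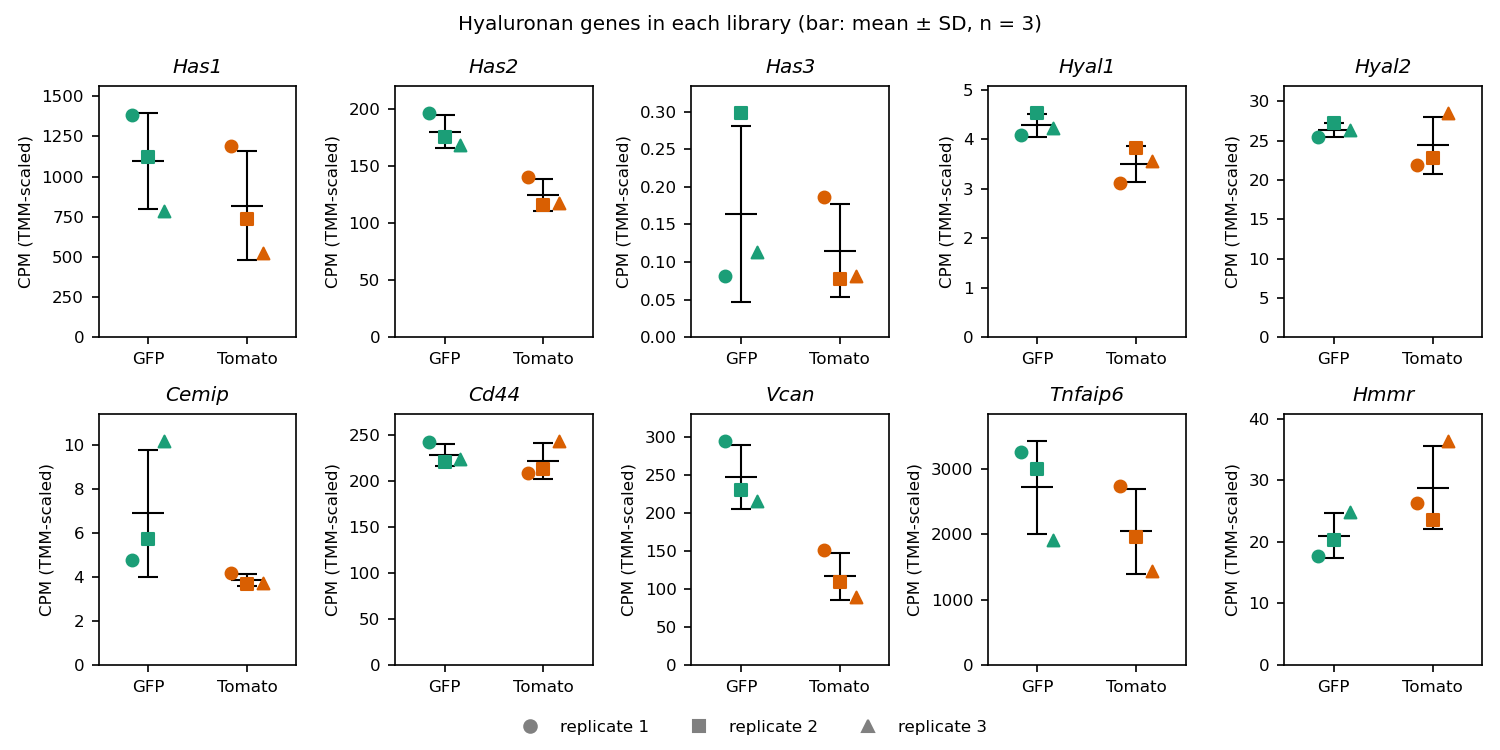
CPM of the 10 hyaluronan genes in the 3 GFP and 3 Tomato libraries, 1 panel for each gene with its own axis from 0; symbols mark the replicate number, and bars the mean and SD. The fractions do not overlap for Has2, Hyal1, Cemip and Vcan, all with GFP above Tomato, and Has3 stays under 0.3 CPM.

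Has1 was by far the main hyaluronan synthase transcript of these cells. Has1 (ENSMUSG00000003665; chromosome 17, 17843323 to 17855205, minus strand, GRCm38) had 1384, 1121 and 787 CPM in GFP and 1189, 738 and 525 CPM in Tomato. The ranges overlapped, since GFP replicate 3 lay below Tomato replicate 1, but in each pair of libraries with the same number the GFP library was the higher one, by 1.16 to 1.52 times. On the log2 scale the difference, GFP minus Tomato, was 0.42 ± 0.32 (SE; 95% interval -0.33 to 1.18, adjusted p = 0.347, edgeR). With the replicate number as a block it was 0.47 ± 0.11 (adjusted p = 0.0103), and without Tomato replicate 1 it was 0.79 (adjusted p = 0.0476). Per kilobase of exon, the scale on which genes can be compared, the mean level of Has1 was 243 CPM per kb in GFP and 181 CPM per kb in Tomato, above 98.8% of the genes tested.

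Has2 (ENSMUSG00000022367; chromosome 15, 56665627 to 56694539, minus strand) encodes the synthase that mouse embryos need for heart development. It had 197, 176 and 169 CPM in GFP and 141, 116 and 118 CPM in Tomato. Every GFP library stood above every Tomato library, and the spread within each fraction was small, with a mean of 180 ± 14.5 CPM in GFP and 125 ± 13.7 CPM in Tomato (SD, n = 3 each). Has2 was higher by 0.53 ± 0.11 in log2 terms (SE; adjusted p = 0.00889, edgeR). The antisense gene Has2os, which shares 182 exonic bases with Has2, averaged 6.48 ± 0.73 CPM in GFP libraries and 6.03 ± 1.46 CPM in Tomato libraries, with an adjusted p of 0.725 for a log2 fold change of 0.10. It was 0.44 (adjusted p = 0.0598) with the counts of a single strand, 0.45 (adjusted p = 0.19) adjusted for GC content and length, and 0.48 with the block added, where it passed (adjusted p = 0.0342). Forward and reverse counts differed little, so neither the counts used here nor a single strand column separates the strands. Reads in the shared bases therefore cannot be assigned to either gene.

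Has3 (ENSMUSG00000031910; chromosome 8, 106870242 to 106884566, plus strand), the third synthase gene, was close to undetected. It had 3, 10 and 4 reads in the GFP libraries and 8, 3 and 3 reads in the Tomato libraries, and 352 of its exonic bases are shared with Chtf8 on the other strand. At counts this low no difference between the fractions was detectable.

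Summed per kilobase, the 3 synthase genes came to 353, 290 and 214 CPM per kb in GFP and to 296, 191 and 144 CPM per kb in Tomato. The means were 285 ± 69.4 in GFP and 210 ± 78.1 in Tomato (SD, n = 3 each), a difference within the spread between libraries (two-sided exact permutation test without pairs, p = 0.3; 3 against 3 cannot go below 0.1). Within libraries of equal number the sum was higher in GFP each time, with ratios of 1.19, 1.52 and 1.49, and the fit with the block called both Has1 and Has2 (adjusted p = 0.00104). Has1 made up 81.4% to 86.8% of the sum in GFP and 80.7% to 88.8% in Tomato, and Has2 nearly all the rest. The shares overlapped, although of both genes Has2 alone passed the test without the block. The ratio of Has1 to Has2 per kilobase was 5.65 ± 1.15 in GFP and 6.03 ± 1.88 in Tomato (exact permutation p = 1).

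**Figure D2:**
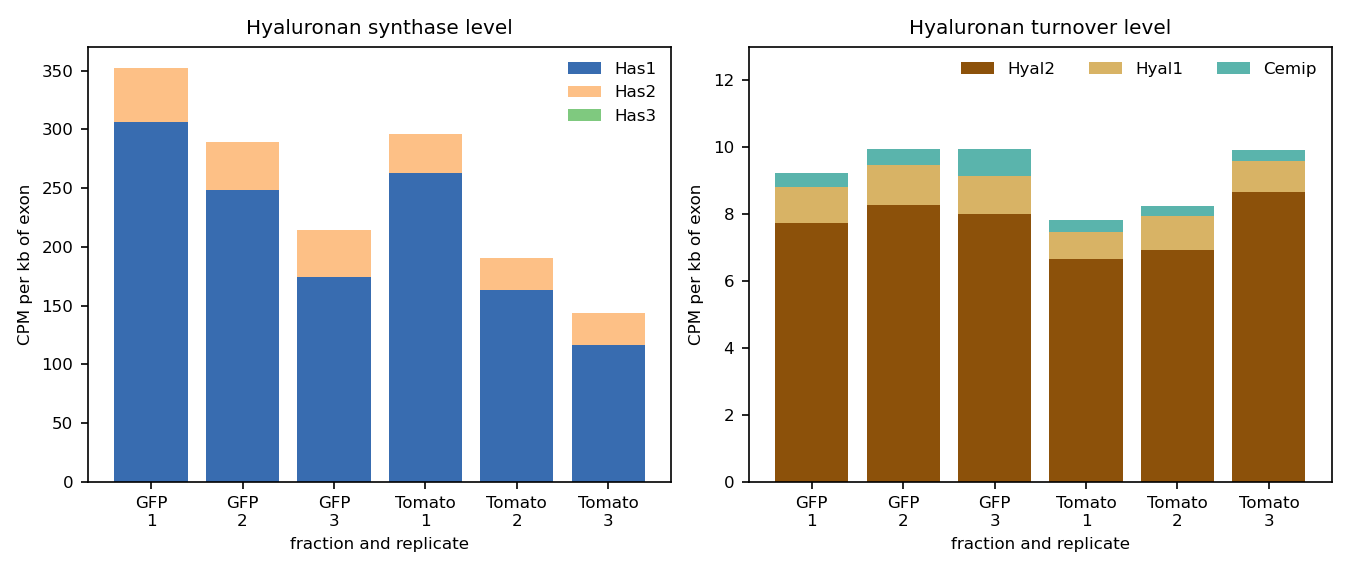
Stacked levels, in CPM per kb of exon, of the synthase genes (left) and of Hyal2, Hyal1 and Cemip (right) in each library; Has3 is too low to be seen. Has1 makes up over 80% of every synthase bar, and Hyal2 is the main part of every turnover bar.

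Tnfaip6 was the most abundant hyaluronan gene, above 99.9% of the genes tested per kilobase. It encodes TSG-6, a secreted protein induced in inflammation that moves heavy chains of inter-alpha-inhibitor onto hyaluronan. Tnfaip6 (ENSMUSG00000053475; chromosome 2, 52038009 to 52056686, plus strand) had 3255, 2999 and 1913 CPM in GFP and 2737, 1961 and 1433 CPM in Tomato. As with Has1 the ranges overlapped, and each GFP library exceeded the Tomato library of its number, by ratios of 1.19, 1.53 and 1.33. The log2 fold change was 0.41 ± 0.27 (95% interval -0.21 to 1.04, adjusted p = 0.277, edgeR), and with the block 0.43 ± 0.11 (adjusted p = 0.018). Adjusted for GC content and length it was 0.78 (adjusted p = 0.114), and 0.82 (adjusted p = 0.000759) once the block was added.

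Tnfaip6 and the synthases varied together from library to library. The synthase sum differed 2.45-fold between the highest and the lowest library and Tnfaip6 2.27-fold, but their ratio per kilobase only 1.16-fold, at 5.40, 6.06 and 5.22 in GFP and 5.40, 6.01 and 5.82 in Tomato. Ptx3, the pentraxin that joins TSG-6 in hyaluronan complexes, had 1343, 1429 and 790 CPM in GFP and 1054, 722 and 414 CPM in Tomato. Ugdh, the enzyme that makes UDP-glucuronic acid, had 1366, 1277 and 917 CPM in GFP and 989, 804 and 741 CPM in Tomato. Both were lowest in library 3 of each fraction, as Has1 and Tnfaip6 were, and both passed the test only in part of the fits: with the block Ptx3 was higher by 0.76 (adjusted p = 0.00331) and Ugdh by 0.48 (adjusted p = 0.00768), against 0.70 (adjusted p = 0.179) and 0.49 (adjusted p = 0.0652) without it. These genes were picked for this pattern after their values were seen, and it is given as a description.

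**Figure D3:**
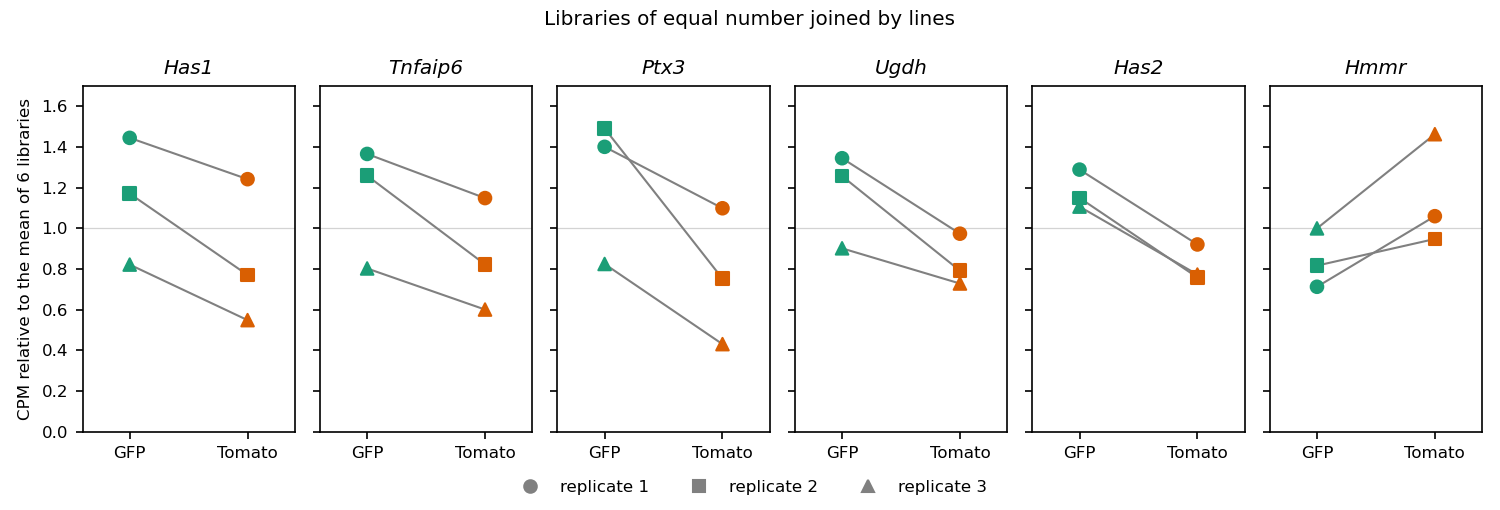
CPM of 6 genes in each library relative to the mean of the 6 libraries, with the GFP and Tomato libraries of equal number joined by a line. Has1, Tnfaip6, Ptx3, Ugdh and Has2 go down from GFP to Tomato along every line and Hmmr goes up, while the 3 lines of Has1 start at levels as far apart as 787 and 1384 CPM.

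Promoter letters are shown for the most abundant synthase gene and for Tnfaip6, which varied with it. The windows are the 250 bases before the gene start in RefSeq (GRCm38.p6), 5′ to 3′ on the strand of the gene. RefSeq starts differ from the gene coordinates given above, and the windows of Has1 and Tnfaip6 reach into the gene by those coordinates. Capitals mark matches, on either strand, to the CCAAT box (CCAAT), the GC box (GGGCGG), the cAMP response element (TGACGTCA), the AP-1 site (TGANTCA) and the TATA box (TATAAA). The table held windows for 8 of the 10 genes, all but Has2 and Has3.
Has1 (chr17:17855189-17855438, minus strand): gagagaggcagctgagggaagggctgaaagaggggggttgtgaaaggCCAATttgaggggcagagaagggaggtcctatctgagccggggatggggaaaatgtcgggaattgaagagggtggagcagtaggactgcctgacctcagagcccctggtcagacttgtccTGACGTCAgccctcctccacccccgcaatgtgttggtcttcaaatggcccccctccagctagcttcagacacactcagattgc
Tnfaip6 (chr2:52037863-52038112, plus strand): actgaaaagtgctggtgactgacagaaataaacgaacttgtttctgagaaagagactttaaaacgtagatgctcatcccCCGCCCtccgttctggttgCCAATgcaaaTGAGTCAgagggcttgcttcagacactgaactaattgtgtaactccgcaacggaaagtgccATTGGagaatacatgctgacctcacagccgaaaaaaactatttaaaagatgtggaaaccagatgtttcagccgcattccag
The Has1 window held 1 CCAAT box and 1 full cAMP response element, a motif found in 1.55% of the 32851 windows in the table. The Tnfaip6 window held 2 CCAAT boxes, 1 GC box and 1 AP-1 site, and AP-1 matches occurred in 6.75% of all windows. Of these CCAAT boxes the one read as ATTGG lies past the gene start given above (52038009). The windows of Has1 and Tnfaip6 shared the CCAAT box alone among these motifs, which 33.8% of all windows hold.

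Of the binding proteins of the matrix, versican showed the widest difference. Vcan (ENSMUSG00000021614; chromosome 13, 89655312 to 89742509, minus strand) encodes a large chondroitin sulfate proteoglycan whose end domain binds hyaluronan. It had 295, 230 and 216 CPM in GFP and 151, 110 and 89.8 CPM in Tomato, so that the lowest GFP library lay well above the highest Tomato library. Vcan was higher by 1.08 ± 0.20 on the log2 scale (adjusted p = 0.00705, edgeR), and the ratios within equal numbers were 1.96, 2.10 and 2.41. Vcan is the longest of the 10 genes, with 14.5 kb of exon, and adjusted for GC content and length it was higher by 0.84 (adjusted p = 0.00585). Per kilobase Vcan averaged 17.1 CPM per kb in GFP libraries and 8.07 CPM per kb in Tomato libraries, below Has1 and Has2 in both. Its promoter window is shown because Vcan carried the largest change of the 10 genes.
Vcan (chr13:89742513-89742762, minus strand): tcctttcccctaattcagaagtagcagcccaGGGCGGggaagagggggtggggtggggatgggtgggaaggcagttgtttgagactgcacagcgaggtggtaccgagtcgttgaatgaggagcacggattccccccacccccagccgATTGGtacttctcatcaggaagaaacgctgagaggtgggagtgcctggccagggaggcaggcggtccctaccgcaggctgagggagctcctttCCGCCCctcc
It held 1 CCAAT box and 2 GC boxes, and 32.7% of all windows hold a GC box.

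CD44, the main hyaluronan receptor on fibroblasts, white blood cells and tumour cells, was nearly level. Cd44 (ENSMUSG00000005087; chromosome 2, 102811141 to 102901665, minus strand) had 242, 220 and 224 CPM in GFP and 208, 213 and 244 CPM in Tomato, with overlapping ranges. Its log2 fold change was 0.04 ± 0.10, with a 95% interval of -0.18 to 0.27 (adjusted p = 0.752, edgeR). Its sign turned when counts were scaled by library size alone (-0.13, adjusted p = 0.411) and when adjusted for GC content and length (-0.03, adjusted p = 0.817). Read counts per gene do not tell the splice forms of Cd44 apart.

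Hmmr, which encodes RHAMM, was lower in GFP with the replicate block, but missed the threshold without it under TMM scaling. RHAMM binds hyaluronan and, within the cell, the mitotic spindle. Hmmr (ENSMUSG00000020330; chromosome 11, 40701395 to 40733422, minus strand) had 17.8, 20.4 and 24.9 CPM in GFP and 26.4, 23.6 and 36.5 CPM in Tomato. The ranges overlapped between GFP replicate 3 and Tomato replicate 2, but each GFP library was below the Tomato library of its number. For Hmmr the log2 fold change was -0.46 ± 0.18 (95% interval -0.88 to -0.04, adjusted p = 0.0939, edgeR), and -0.45 ± 0.10 with the block (adjusted p = 0.00797). Scaling by library size alone also gave a call (-0.63, adjusted p = 0.0475), where the median of all genes was itself at -0.16.

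Of 25 genes of mitosis and DNA synthesis 14 were lower in GFP and none higher (15.7% of all genes were lower), and 11 did not pass, Mki67 (0.18) and Cenpe (0.11) among them. The list had a median log2 fold change of -0.42, and its summed level was 772 to 877 CPM in GFP and 1001 to 1326 CPM in Tomato. For each 1000 CPM of that list, Hmmr made 25.5 ± 2.71 CPM in GFP libraries and 25.8 ± 2.03 CPM in Tomato libraries (SD, n = 3 each; two-sided exact permutation test, p = 0.9). The promoter window of Hmmr is shown for its row of CCAAT boxes.
Hmmr (chr11:40733438-40733687, minus strand): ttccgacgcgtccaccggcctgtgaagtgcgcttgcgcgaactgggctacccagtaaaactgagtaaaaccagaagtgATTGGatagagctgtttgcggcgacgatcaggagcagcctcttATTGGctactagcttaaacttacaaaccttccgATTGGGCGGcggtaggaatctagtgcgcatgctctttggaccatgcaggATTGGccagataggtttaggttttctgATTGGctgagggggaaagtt
It held 5 CCAAT boxes, all read on the opposite strand as ATTGG, and 1 of them overlaps the GC box. Of all windows 0.213% held at least 5.

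Transcripts of the turnover genes Hyal1, Hyal2 and Cemip were scarce beside those of the synthases. Hyal2 (ENSMUSG00000010047; chromosome 9, 107567945 to 107572779, plus strand), a hyaluronidase anchored at the cell surface, had 25.5, 27.3 and 26.4 CPM in GFP and 21.9, 22.8 and 28.5 CPM in Tomato. The ranges overlapped, with Tomato replicate 3 the highest of all. The log2 fold change was 0.11 ± 0.12 (95% interval -0.16 to 0.38, adjusted p = 0.491, edgeR), and -0.06 when scaled by library size alone. Hyal1 (ENSMUSG00000010051; chromosome 9, 107576927 to 107581710, plus strand), the lysosomal hyaluronidase, had 4.09, 4.54 and 4.23 CPM in GFP and 3.13, 3.83 and 3.56 CPM in Tomato. Its libraries did not overlap, as was the case for 48.6% of all genes tested, and the log2 fold change of 0.29 ± 0.16 missed the threshold (adjusted p = 0.205). Of its 3777 exonic bases 1920 are shared with Naa80 and 159 with Hyal3, so its counts are uncertain.

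Cemip (ENSMUSG00000052353; chromosome 7, 83932857 to 84086502, minus strand), also known as KIAA1199 or HYBID, drives the breakdown of hyaluronan by fibroblasts. It had 4.79, 5.73 and 10.2 CPM in GFP and 4.18, 3.68 and 3.75 CPM in Tomato. All GFP libraries were above all Tomato libraries, but GFP replicate 3 stood far above the other two. Cemip was higher by 0.84 ± 0.27 on the log2 scale (adjusted p = 0.0489, edgeR). Without GFP replicate 3 it was 0.44 (adjusted p = 0.134), and 0.56 (adjusted p = 0.181) when adjusted for GC content and length. The Cemip window is shown because it alone of the 8 held the TATA box letters, which 12.4% of all windows have.
Cemip (chr7:84086506-84086755, minus strand): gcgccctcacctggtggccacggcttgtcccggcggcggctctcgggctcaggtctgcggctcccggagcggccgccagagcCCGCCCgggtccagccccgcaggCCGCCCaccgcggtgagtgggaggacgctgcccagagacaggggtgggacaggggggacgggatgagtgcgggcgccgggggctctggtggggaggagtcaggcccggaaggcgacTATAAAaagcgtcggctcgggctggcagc

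Summed per kilobase, Hyal1, Hyal2 and Cemip came to 9.71 ± 0.43 CPM per kb in GFP and 8.65 ± 1.11 CPM per kb in Tomato (SD, n = 3 each; two-sided exact permutation test, p = 0.2). The synthase sum was 21.5 to 38.3 times as high as this in GFP and 14.5 to 37.9 times in Tomato, ranges that overlapped. Other turnover genes, outside the 10 members, are not in this sum. Among them Cemip2 had 8.80 ± 2.27 CPM per kb in GFP and 6.64 ± 1.35 CPM per kb in Tomato, and Hexa 129 ± 3.69 and 110 ± 3.98 CPM per kb. Of the 10 members, Tnfaip6 had the highest mean level per kilobase in both fractions and Has1 the next, followed by Has2 and Cd44. Has2 and Cd44 lay apart in GFP (42.6 ± 3.43 and 33.7 ± 1.74 CPM per kb), but not beyond their spread in Tomato (29.4 ± 3.23 and 32.7 ± 2.86 CPM per kb), where Cd44 was the higher.

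**Figure D4:**
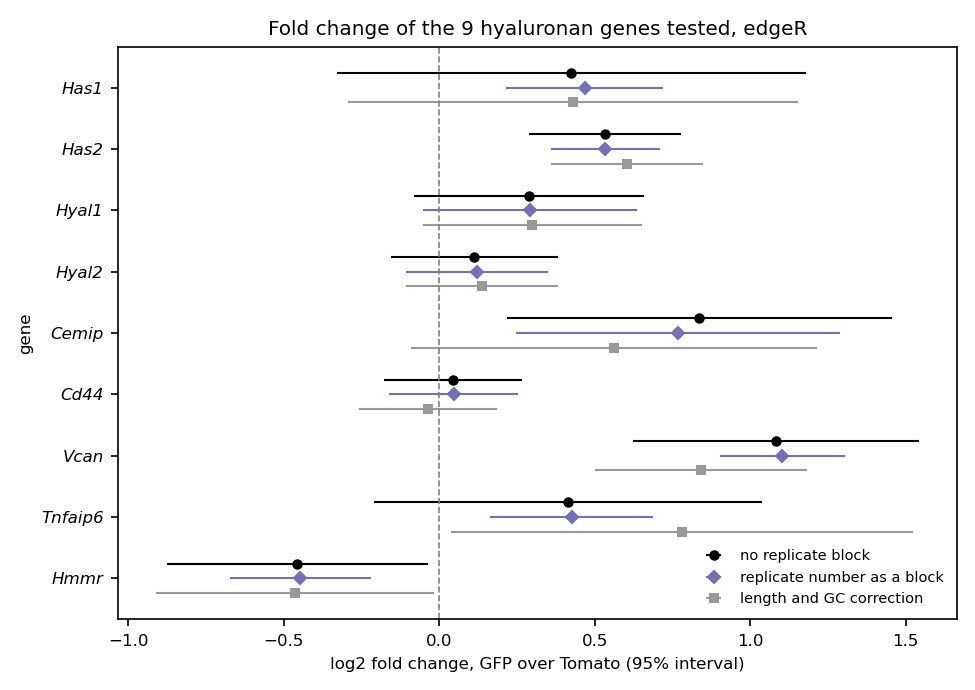
Log2 fold change, GFP over Tomato, with its 95% interval for the 9 hyaluronan genes tested, without a block, with the replicate number as a block, and with the adjustment for GC content and length. With the block the intervals of Has1 (0.22 to 0.72), Tnfaip6 (0.16 to 0.69) and Hmmr (-0.67 to -0.22) leave out 0.

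Within the 3 pairs of equal number, 6 of the 9 genes tested were higher in GFP every time (Has1, Has2, Hyal1, Cemip, Vcan and Tnfaip6), 1 was lower every time (Hmmr), and Hyal2 and Cd44 went both ways. Across all genes tested 34.4% were higher and 34.8% lower in every pair. The genes whose log2 CPM followed Has2 most closely over the 6 libraries, among 8912 protein-coding genes of at least 10 CPM, were Chd2 (Pearson r = 0.999), Srsf11 (0.997) and Prrc2c (0.997). For Vcan they were Usp32, Slc4a3 and Elmo2 (each 0.999), for Cd44 St6gal1 (0.97), Hook2 (0.959) and Pald1 (0.956), and for Hmmr Jagn1 (0.996), Tsg101 (0.995) and Uhrf1 (0.994). These values rest on 6 libraries in 2 fractions and are descriptions.

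Of 42 further genes of the hyaluronan pathway that passed the filter, 7 were higher in GFP and 4 lower, against the background of 13.1% and 15.7%. With the replicate number as a block 13 were higher and 6 lower, where 20.1% and 20.9% of all genes were called. The genes gained were Ugdh, Hexa, Ptx3, Itih5, Nf2 and Iqgap1, all higher, and Pgm1 (-0.34, adjusted p = 0.0238) and Tlr4 (-0.29, adjusted p = 0.0336), both lower. The median log2 fold change of the 42 was 0.21. The widest difference was that of a surface receptor. Lyve1, the hyaluronan receptor of lymphatic endothelium, had 126, 116 and 81.8 CPM in GFP and 22.7, 14.0 and 5.89 CPM in Tomato (2.92 ± 0.45 on the log2 scale, adjusted p = 0.00462). Its lowest GFP library stood well above its highest Tomato library. Stab1, a scavenger receptor of endothelium and macrophages, had 46.6 ± 12.4 CPM in GFP and 15.7 ± 2.01 CPM in Tomato (1.57 ± 0.19, adjusted p = 0.00106). Both moved with the lymphatic endothelial list, to which Lyve1 belongs, and with 8 blood and pan-endothelial markers (6 higher; 119 to 174 CPM summed in GFP, 58.6 to 78.2 CPM in Tomato). The part of such cells in the difference was not tested. Tlr2, an innate immune receptor reported to sense hyaluronan fragments, had 26.6 ± 1.59 CPM in GFP and 77.5 ± 12.4 CPM in Tomato (-1.54 ± 0.13, adjusted p = 0.000158), and moved with the macrophage list; the part of those cells was not tested. Of 7 receptor genes 3 were higher and 1 lower, and Ptprj (0.44, adjusted p = 0.0202) was the remaining one that passed, though not when scaled by library size alone (0.27, adjusted p = 0.0687) or without GFP replicate 1 or 3 or Tomato replicate 2 (adjusted p up to 0.0712).

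Among 13 genes of precursor supply 2 were higher and 1 lower. Hk2, a hexokinase gene at the entry of glucose into sugar phosphate metabolism, had 121 to 158 CPM in GFP and 73.2 to 90.5 CPM in Tomato, with no overlap (0.72 ± 0.13, adjusted p = 0.00526). Gfpt1, a gene of the gate of the hexosamine pathway, was higher by 0.36 (adjusted p = 0.0306; 81.0 CPM in GFP and 63.0 CPM in Tomato). Gfpt2, a gene of the same step, was far more abundant (958 ± 210 CPM in GFP and 787 ± 131 CPM in Tomato). It did not pass without the block (0.28, adjusted p = 0.27) or with it (0.27, adjusted p = 0.0501). The call of Gfpt1 was lost when scaled by library size alone (0.20, adjusted p = 0.172) and when adjusted for GC content and length (0.19, adjusted p = 0.111). It was also lost in 4 of the 6 refits that each omit a library (GFP replicates 1 and 3, Tomato replicates 2 and 3, with adjusted p up to 0.104). Gpi1, which turns glucose 6-phosphate into fructose 6-phosphate, was lower (-0.57, adjusted p = 0.0281), a call also lost in 4 such refits (any GFP replicate or Tomato replicate 2; adjusted p up to 0.0973). None of 5 turnover genes passed. The most abundant was Hexa, a lysosomal hexosaminidase subunit gene (257 ± 7.36 CPM in GFP and 220 ± 7.93 CPM in Tomato; 0.22, adjusted p = 0.077), which passed with the block (0.22, adjusted p = 0.0495) and when adjusted for GC content and length (0.43, adjusted p = 0.0129).

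Hapln1, which encodes a link protein that fixes proteoglycans to hyaluronan, was scarce, with 1.80, 0.69 and 0.76 CPM in GFP and 0.30, 0.26 and 0.081 CPM in Tomato. It was the one gene called among 3 tested link protein and proteoglycan genes (2.31 ± 0.54, adjusted p = 0.0157), and the call was lost without GFP replicate 1 (1.73, adjusted p = 0.0621) or Tomato replicate 2 (2.44, adjusted p = 0.0518). Among 6 genes of heavy chain transfer and complex assembly, Itih3 was higher (6.20 ± 0.87 CPM in GFP and 2.78 ± 0.88 CPM in Tomato; 1.15, adjusted p = 0.0122) and Itih4 lower (0.56 ± 0.35 CPM in GFP and 1.66 ± 0.48 CPM in Tomato; -1.58, adjusted p = 0.0425). The call of Itih4 was lost in 5 of the 6 refits that each omit a library (all but GFP replicate 3; adjusted p up to 0.0866). It was also lost when adjusted for GC content and length without the block (-1.56, adjusted p = 0.0528). With the block Ptx3 and Itih5 passed as well. Itih5, a gene of the same family chosen after its values were seen, had 466, 479 and 431 CPM in GFP and 356, 330 and 182 CPM in Tomato, with no overlap (0.67, adjusted p = 0.061; with the block 0.72, adjusted p = 0.00913). Of 7 CD44 partner and splicing genes 1 was called without the block: Ezr, which encodes ezrin, a linker between CD44 and actin that is abundant in epithelia, had 64.2 ± 5.96 CPM in GFP and 206 ± 23.9 CPM in Tomato (-1.68 ± 0.12, adjusted p = 7.28e-05). Nf2 (0.29, adjusted p = 0.0483) and Iqgap1 (0.29, adjusted p = 0.041) passed with the block. The mesothelial and epithelial lists were lower too, and their part in this was not tested.

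**Figure D5:**
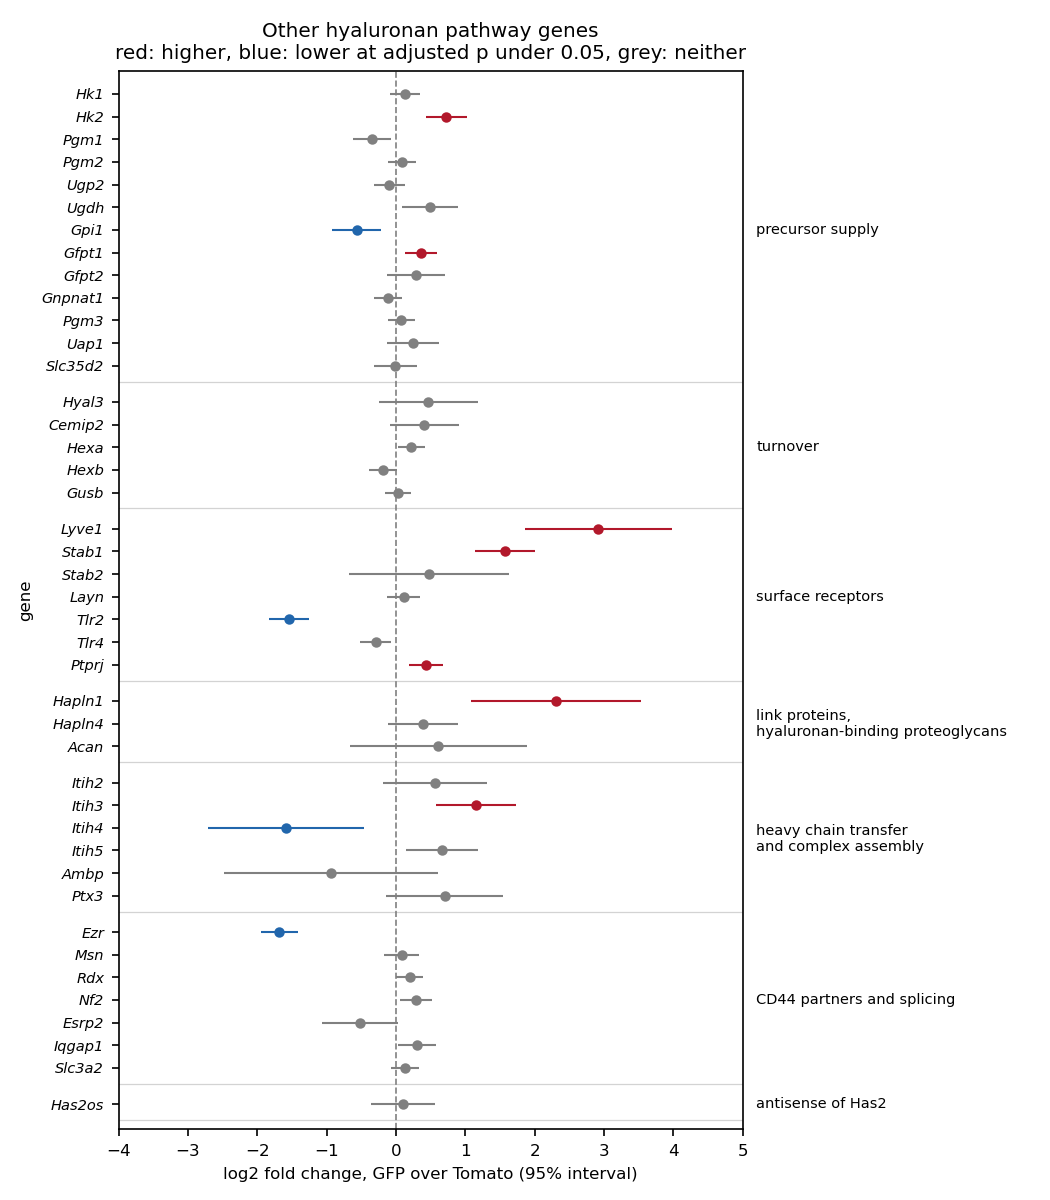
Log2 fold change, GFP over Tomato, with its 95% interval for 42 further hyaluronan pathway genes, grouped by role; red marks genes higher and blue genes lower in GFP at an adjusted p under 0.05 (edgeR, no block). Lyve1 (2.92) and Hapln1 (2.31) lie farthest to the right, and Ezr (-1.68) and Itih4 (-1.58) farthest to the left.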

How the data were processed

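RNA was measured in 6 libraries built with an Illumina TruSeq kit from 150 ng of total RNA each, per the labels' protocols. The authors deposited raw counts of reads for each gene, per the file headers, over both strands and for either strand. Build GRCm38, STAR 2.5.2b and Trim Galore 0.4.3 are named in the submitters' processing notes, without roles; the annotation release is not given in the sources used here. Counts over both strands were used, as forward and reverse counts differed little (ratio 1.002 to 1.006). Names and 1-based coordinates came from GENCODE M21 (GRCm38), which matched 49412 of 49671 identifiers.

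GFP was compared with Tomato by the robust quasi-likelihood F test of edgeR 4.0.16 (R 4.3.3), two-sided, without a block, after filterByExpr and TMM scaling, adjusted over 15608 genes. Each standard error is the fold change divided by the root of F. Levels per kilobase use the union of exons, and promoter sequences are from RefSeq (GRCm38.p6). The labels do not say whether replicates were separate animals, so p-values may measure technical spread. No libraries were duplicates (chi-square per degree of freedom at least 28.0).

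Deviations from the fraction means correlated at 0.487, 0.21 and 0.422 between libraries of equal number, and at -0.46 to -0.027 between the others. The 3 values at equal numbers exceeded 0.1, and equal numbers were treated as pairs in the fits with the block and in the ratios within equal numbers. Deviations from a mean of 3 libraries offset each other. The values between the others therefore tend to be negative and are no separate evidence. The main fit and the permutation tests used no pairs. That equal numbers go together comes from the data, not the labels.

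The alternatives were relative log expression and library size scaling, no filter, DESeq2 1.42.0, limma-voom (limma 3.58.1), the block, a single strand column, an adjustment for GC content and length (splines with 4 degrees of freedom, alone and with the block), and leaving out each library. That adjustment took GC content from the longest transcript and length from the union of exons. The members and lists were chosen with earlier results of these data known. The text names all members and, in each role group, the 3 called genes with the smallest adjusted p, or the most abundant gene if none was called. Ptx3, Ugdh, Gfpt2, Cemip2, the other genes called with the block alone and the motifs were chosen after values were seen. Ptprj meets no smallest-p limit and was named to complete a count. Markers with an ambiguous symbol (Ccl21a) were left out.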

Additional observations from a re-analysis of the deposited data

How the results depend on the processing

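Of 135 member values recomputed under the alternatives, 112 kept their direction and side of the threshold, 10 lost a call (all of them Cemip), 8 gained one and 5 changed sign. The sign changes were those of Hyal2 with library size scaling (-0.058) and of Cd44 with library size scaling (-0.13), with the adjustment for GC content and length (-0.035, and -0.029 with the block) and without Tomato replicate 1 (-0.0066, in a range of -0.0066 to 0.11 without 1 library); none of these passed the threshold. Cemip also lost its call with library size scaling (adjusted p = 0.0913), limma-voom (0.0726) and a single strand column (0.0665).

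A block for the replicate number called 3137 genes higher; 5 of the 9 members were higher and 1 was lower, and 13 further pathway genes were higher and 6 lower; the block changed no member's call other than those of Has1, Tnfaip6 and Hmmr. With the adjustment for GC content and length plus the block 4 members were higher and 1 was lower, and 15 pathway genes were higher and 5 lower. Scaling by library size alone called 1128 genes higher and 3851 lower, so that 22.7% of the calls were higher in place of 45.5%, 2 members were higher and 1 was lower, and 5 pathway genes were higher and 7 lower. In fits without 1 library, which also have fewer samples, 833 to 2392 genes were higher and 1380 to 2793 lower, 2 to 3 members were higher and 0 lower, and 4 to 9 pathway genes were higher and 2 to 5 lower. The difference in the synthase sum was 75.0 CPM per kb, and 41.4 to 118 CPM per kb in those fits. The cause of these shifts was not tested. Has3 had 3 to 10 reads in a library, too few for a difference to be seen.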
